A study of Zea mays with 6 samples.

Results

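The 3′ end m6A peaks of the gene-poor stretches of the maize genome were described, in comparison with such peaks in the rest of chromosomes 1 to 10. Each chromosome was divided into windows of 5 Mb from its first base, and a window was called gene-poor where fewer than 75 annotated entries started in it. A peak counted as a 3′ end peak where it was called in m6A-seq replicate 1, overlapped a replicate 2 peak, and had its summit in exactly 1 gene, within the last 10% of that gene on its strand. Of 17371 replicate 1 peaks, 1183 met these conditions in gene-poor windows, in 1135 genes, and 8422 met them in the other windows, in 8144 genes. Replicate 2 had 30378 peaks, and 17022 of the replicate 1 peaks overlapped one, so the overlap condition removed few. The windows were chosen by position and gene number, with no level of m6A, mRNA, or translation. The peaks were not free of m6A or mRNA level, since each had to be called as enriched over input mRNA in both replicates. No further cutoff on fold, mRNA FPKM or polysome FPKM was set. Gene length entered the choice of peaks in part, since the last 10% of a long gene is a longer stretch.

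The study profiled aerial tissue of 14-day-old seedlings of the maize F1 hybrid B73×Mo17, the cross of the inbred lines B73 and Mo17. Its 6 libraries comprised 2 replicates each of m6A-IP (RNA immunoprecipitated with an antibody to m6A), input mRNA, and polysome RNA (RNA that sediments with ribosomes). The parental lines were not analysed here, so each value describes the hybrid alone, and since hybrid reads were mapped to the B73 genome (AGPv4), the B73 and Mo17 copies of a gene are counted together. Sequencing depth is unknown, because the deposited values are fold enrichments and FPKM (fragments scaled to transcript length and to the library's total), with no counts. The shoot is a mixture of cell types, and fewer cells that express a gene cannot be told apart from less RNA per cell.

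N6-methyladenosine (m6A) is the most common internal modification of eukaryotic mRNA. It is deposited by a methyltransferase complex and read by YTH-domain proteins, and in plants it is concentrated near stop codons and in 3′ untranslated regions (UTRs), where it is known to affect mRNA stability, polyadenylation, and translation. Maize chromosomes carry most genes towards their ends, while the regions around the centromeres are rich in transposable elements, which also lie inside the introns of many maize genes.

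The gene-poor windows numbered 136 of 426 (31.9%) and held 6807 of the 45578 annotated entries (14.9%). The median gene-poor window had 52 entries and the sparsest had 18, whereas the median of the other windows was 124.5. Of the gene-poor windows, 4 were the last of a chromosome, and these held 37 of the peaks. A last window stops at the chromosome end and is shorter than 5 Mb, which lowers its number of entries. Gene-poor windows lay mostly next to each other. The longest unbroken run on each of the 10 chromosomes together took up 111 of them (81.6%) and held 940 of the 1183 peaks (79.5%). On chromosome 4 this run reached from 50 to 145 Mb and held 187 peaks, and on chromosome 5 the run from 90 to 155 Mb held all 111 peaks of that chromosome's gene-poor windows.

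Each gene-poor window had at least 1 3′ end peak. The median was 8 peaks per gene-poor window and 27 per window elsewhere. The gene-poor windows held 12.3% of the 9605 3′ end peaks and 12.4% of the 19397 expressed coding genes (mean FPKM of at least 1 in the 2 mRNA libraries). Among expressed coding genes, 43.9% had a 3′ end peak in gene-poor windows (1057 of 2409) and 44.4% in the other windows (7551 of 16988), so 3′ end methylation was about as frequent per expressed gene in both. What differed more was the share of coding entries that were expressed, 36.4% in gene-poor and 45.7% in other windows.

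**Figure D1:**
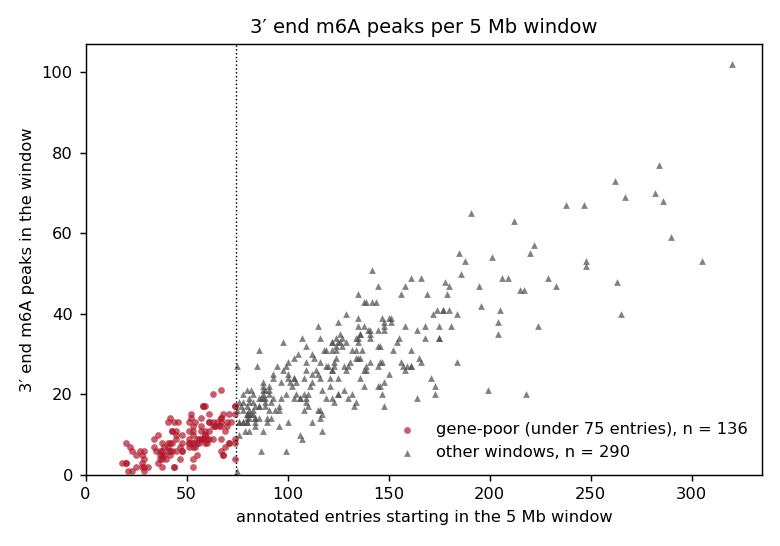
Number of 3′ end m6A peaks (vertical axis) against the number of annotated entries (horizontal axis) in each of the 426 windows of 5 Mb. Red circles are the 136 gene-poor windows, with 1 to 21 peaks, grey triangles the 290 other windows, with 1 to 102 peaks, and the dotted line marks the limit of 75 entries.

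The gene-poor window with the most peaks lay on chromosome 10 from 25000001 to 30000000 (B73 AGPv4) and held 67 entries, 31 of them expressed coding genes. It carried 21 peaks in 20 genes, with a median fold enrichment of 5.92 in replicate 1 and 7.80 in replicate 2. These genes had a median length of 4454 bp and a median mRNA level of 3.12 FPKM, both below the medians of all genes of the group given later. The sparsest window, on chromosome 7, was represented by Zm00001d019824, a gene of 5981 bp on the minus strand (65871026–65877006). Its peak at 65871062–65871295 had a fold enrichment of 6.49 and 7.27 in the m6A-seq replicates, and its summit lay 159 bp from the 3′ end. The gene had 22.7 and 15.3 FPKM in polysome RNA, against 17.7 and 16.5 FPKM in mRNA. The 2 kinds of library overlapped, and the difference did not pass the test described later (log2 difference 0.13 ± 0.21 SE, limma with Benjamini-Hochberg adjustment, adjusted p = 0.619). None of the genes can be given a name or role here, since the annotation used pairs these identifiers with no symbols.

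The m6A level of a peak is its fold enrichment, that is the IP signal over the input signal where the peak is highest. In replicate 1 the median was 7.12 over the peaks of gene-poor windows (quartiles 4.88 and 10.3) and 6.69 over those of other windows (quartiles 4.70 and 9.45). In replicate 2 the medians were 7.42 and 7.21. The 3′ end peaks of gene-poor windows were thus slightly more enriched, by 0.09 on the log2 scale in replicate 1 and 0.04 in replicate 2. For comparison, a single peak differed between its 2 replicates by a median of 0.34 in gene-poor and 0.33 in other windows on the same scale. The gene-poor median was the higher one on 7 of the 10 chromosomes in each replicate, but on 6 in both, and it was lower in both on chromosomes 5 and 6. No p-value is given for such contrasts between windows, since peaks, genes, and neighbouring windows of the same libraries are not replicates.

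The peaks themselves were also slightly wider in gene-poor windows, with a median of 171 bp against 159 bp in replicate 1 and 197 bp against 184 bp in replicate 2. Their median −log10 q was 18.6 against 16.3 in replicate 1. Summits lay at nearly the same distance from the gene end, with medians of 160 bp in gene-poor and 158 bp in other windows. Their surroundings did differ, as the choice of windows would give. The next annotated entry downstream of the gene was a median 63851 bp away in gene-poor windows and 5837 bp away elsewhere.

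**Figure D2:**
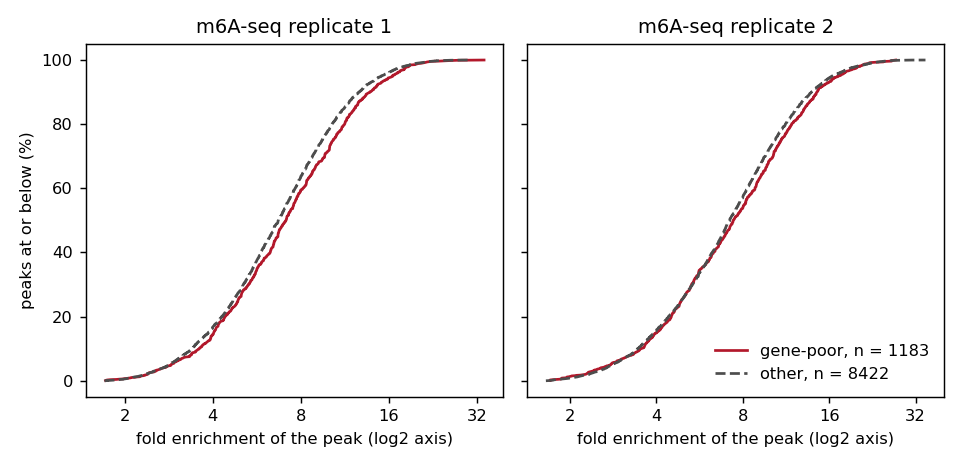
Cumulative share of 3′ end m6A peaks (%) by fold enrichment (log2 axis) in m6A-seq replicate 1 (left panel) and replicate 2 (right panel). The solid red line is the 1183 peaks of gene-poor windows and the dashed grey line the 8422 peaks of other windows; the red line lies slightly to the right over most of its course, with medians of 7.12 against 6.69 and 7.42 against 7.21.

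Within the gene-poor group, fold enrichment was lower where mRNA was more abundant. Across 1103 peaks the Spearman correlation of mean fold with mRNA FPKM was -0.62, close to the -0.61 across 7815 peaks of other windows. These are correlations across genes within the same libraries, which share depth and input, and genes are not independent replicates. They cover called peaks alone, so enrichments too weak to be called are absent from them. Fold and gene length were weakly related in the other direction, with a Spearman correlation of 0.26 in gene-poor and 0.25 in other windows. By length class the gene-poor fold was not higher throughout. In genes of 5495 to 9014 bp the medians were 6.74 and 6.86 in the replicates in gene-poor windows, and 7.02 and 7.48 in other windows, while in the other 3 of 4 equal length classes the gene-poor medians were the higher ones in both replicates. The replicates ranked the peaks alike, with a Pearson correlation of log2 fold of 0.74 in gene-poor and 0.73 in other windows.

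Among genes with at least 10 FPKM of mRNA, the 3 highest and 3 lowest mean folds show this range. The highest was in Zm00001d049886 (chromosome 4, 50576947–50586364, plus strand), whose peak at 50586158–50586362 reached 17.1 and 14.6. The gene had 57.5 and 57.8 FPKM in polysome RNA, against 17.0 and 14.4 FPKM in mRNA, so the 2 kinds of library did not overlap. The same held for Zm00001d050146 (chromosome 4, 69100276–69104100, plus strand), with a fold of 13.4 and 12.8, where polysome RNA had 48.2 and 53.1 FPKM and mRNA had 17.5 and 17.2 FPKM. Both genes passed the test for higher polysome RNA, with log2 differences of 1.88 ± 0.14 (SE, adjusted p = 0.000205) and 1.54 ± 0.12 (SE, adjusted p = 0.000284, limma, Benjamini-Hochberg).

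Zm00001d046221 (chromosome 9, 72853602–72875469, plus strand) had a fold of 15.0 and 10.9 at its 3′ end peak, which was 1 of 14 replicated peaks in that 21868 bp gene. Its polysome RNA was at 5.26 and 10.4 FPKM, against 10.5 and 15.7 FPKM in mRNA. Here the replicates of each kind spread widely and the difference did not pass the test (log2 difference -0.79 ± 0.36 SE, limma adjusted p = 0.0979).

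At the low end, Zm00001d015569 (chromosome 5, 98404993–98412468, minus strand) had a fold of 1.72 and 1.71. Its mRNA was abundant and its polysome RNA lower, at 28.3 and 27.6 FPKM in polysome RNA against 82.7 and 79.3 FPKM in mRNA. Zm00001d020434 (chromosome 7, 114139355–114140955, minus strand), at a fold of 1.74 and 1.71, had the highest mRNA level of the gene-poor group, and still more polysome RNA, with 785 and 736 FPKM in polysome RNA against 296 and 277 FPKM in mRNA. Zm00001d050810 (chromosome 4, 124187282–124193089, plus strand) had a fold of 1.78 and 1.71, with 55.3 and 68.4 FPKM in polysome RNA against 51.0 and 48.2 FPKM in mRNA. The 3 genes with the lowest folds therefore went different ways on polysomes. The log2 differences were -1.53 ± 0.11 (SE, adjusted p = 0.00022) for Zm00001d015569 and 1.41 ± 0.10 (SE, adjusted p = 0.00021) for Zm00001d020434, whereas that of Zm00001d050810, 0.31 ± 0.14 (SE), did not pass (adjusted p = 0.105, limma, Benjamini-Hochberg). Their replicate 2 fold was the same value, 1.71, which was the lowest of the 1183 peaks in that replicate.

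The genes next to Zm00001d020434 in mRNA level also had low folds. Zm00001d009877 (chromosome 8, 86773769–86776719, plus strand) had a fold of 2.41 and 2.29, with 210 and 238 FPKM in polysome RNA against 205 and 189 FPKM in mRNA, a difference that did not pass the test (log2 0.19 ± 0.12 SE, limma adjusted p = 0.21). Zm00001d024009 (chromosome 10, 36528738–36535462, plus strand) had a fold of 2.32 and 2.30, with 59.0 and 70.9 FPKM in polysome RNA, against 170 and 166 FPKM in mRNA. It passed as lower on polysomes (log2 -1.37 ± 0.13 SE, limma adjusted p = 0.000442).

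At the other extreme of abundance, 79 of the 1135 genes (6.96%) averaged under 1 FPKM in mRNA although they carried a replicated peak, and 592 of 8144 (7.27%) did so in other windows. Of these 79 genes, 11 had a listed value of 0 in each mRNA library, and 5 of those also in each polysome library. Their peaks had high folds, with medians of 10.1 and 11.2 in the 2 replicates for the 79 genes of gene-poor windows, and of 8.74 and 10.6 for those of other windows. A fold set on so little input signal is uncertain, and a value listed at 0 in a file without counts can be a failed estimate.

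Gene length set the groups apart more than fold did. Genes with a 3′ end peak had a median annotated length, introns included, of 6234 bp in gene-poor windows (quartiles 4099.5 and 11457.5 bp) and 5427 bp in other windows (quartiles 3797.5 and 8719.25 bp), a ratio of 1.15. The upper quartiles differed more than the lower ones. Genes over 20 kb made up 9.60% of the gene-poor group (109 of 1135) and 5.22% of the other (425 of 8144), and genes over 50 kb numbered 13 of 1135 and 26 of 8144. The gene-poor median was longer on 8 of the 10 chromosomes, the exceptions being chromosome 4 (5381 against 5594 bp) and chromosome 6 (4983.5 against 5480 bp). It was widest apart on chromosome 1, with 8347 bp in gene-poor and 5486.5 bp in other windows.

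This difference did not extend to expressed genes without a 3′ end peak. Their median lengths were 1929 bp in gene-poor and 2050 bp in other windows. Genes with a 3′ end peak were longer than those without one in both kinds of window, and the distance between the 2 kinds of gene was the greater in gene-poor windows. Because the last 10% is a longer stretch in a longer gene, the comparison was repeated with summits within 500 bp of the 3′ end, and the length ratio was then 1.11. The difference was not particular to 3′ end peaks. Genes with a shared peak outside their last 10% had median lengths of 9813 bp in gene-poor and 6596 bp in other windows, a ratio of 1.49. Some of these genes had a 3′ end peak as well.

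**Figure D3:**
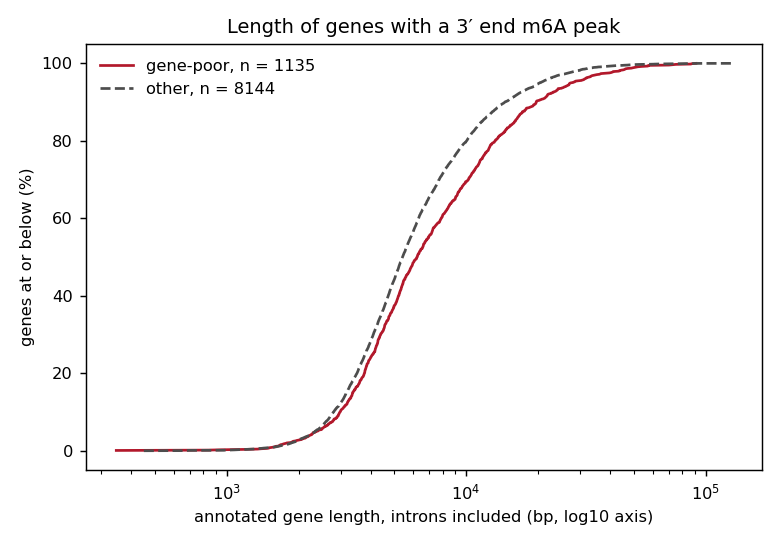
Cumulative share of genes with a 3′ end m6A peak (%) by annotated gene length (bp, log10 axis). The solid red line is 1135 genes of gene-poor windows, median 6234 bp, and the dashed grey line 8144 genes of other windows, median 5427 bp; 30.6% of the gene-poor and 20.1% of the other genes are over 10 kb.

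Length also changed across the density of genes. In the 53 windows with 25 to 49 entries the median length was 8366 bp, in the 75 windows with 50 to 74 entries it was 5812.5 bp, in the 79 windows with 75 to 99 entries it was 5746 bp, and in the 29 windows with 200 or more it was 5124 bp. The same 53 sparse windows had the highest median folds of these classes, 7.65 and 8.21 in the replicates, and the lowest median mRNA level, 4.23 FPKM. The 8 windows with fewer than 25 entries went the other way in all 3 measures. Their median folds were 6.63 and 6.68, and their genes had a median mRNA level of 6.55 FPKM and a median length of 5588 bp. These windows held 32 peaks in 28 genes, too few to extend the series downwards. They include the last windows of chromosomes 3 and 10, which held 6 and 8 of these peaks and are cut short by the chromosome end. At the limit itself, 12 windows with 70 to 74 entries held 139 peaks with median folds of 6.65 and 6.55, and 14 windows with 75 to 79 entries held 206 peaks with median folds of 6.94 and 7.23. The median gene lengths just inside and just outside the limit were 6595.5 and 5963.5 bp.

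The 3 longest genes with at least 1 FPKM of mRNA were each close to 90 kb and each carried further peaks along the gene. Zm00001d015890 (chromosome 5, 129466482–129557572, minus strand) is 91091 bp long and had 23 replicated peaks. The 3′ end peak, at 129466575–129466732, had a fold of 9.68 and 11.2 and lay 189 bp from the end of the gene. Its polysome RNA was at 2.47 and 3.40 FPKM, against 5.65 and 6.07 FPKM in mRNA, with no overlap. It passed as lower on polysomes (log2 -0.99 ± 0.21 SE, limma adjusted p = 0.00773), a call that was lost without mRNA replicate 1 (adjusted p = 0.0283), mRNA replicate 2 (adjusted p = 0.0379) or polysome replicate 1 (adjusted p = 0.027).

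Zm00001d040864 (chromosome 3, 73203868–73290655, minus strand), 86788 bp long with 11 replicated peaks, had a fold of 7.27 and 10.01 at its 3′ end. Its next downstream entry was 975057 bp away, the greatest such distance in the group. It had 0.482 and 0.860 FPKM in polysome RNA, against 2.42 and 2.35 FPKM in mRNA. The log2 difference of -1.73 ± 0.31 (SE, limma adjusted p = 0.0045) was likewise no longer called without mRNA replicate 1 (adjusted p = 0.0183), mRNA replicate 2 (adjusted p = 0.0154) or polysome replicate 1 (adjusted p = 0.0126). Zm00001d046039 (chromosome 9, 58107514–58194898, minus strand), 87385 bp long with 9 replicated peaks, had a fold of 11.1 and 12.7. At 0.424 and 0.323 FPKM in polysome RNA, against 1.42 and 1.57 FPKM in mRNA, it fell below the level needed for the test.

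Peaks outside the 3′ end were more frequent in gene-poor windows. Of shared peaks with the summit in 1 gene, 57.0% lay in the last 10% of the gene in gene-poor windows (1183 of 2076) and 71.6% in other windows (8422 of 11761). The share was lower in gene-poor windows on 9 of 10 chromosomes, and on chromosome 6 it was higher, at 85.8% against 72.4%. Away from the 3′ end the gene-poor summits were spread over the gene, with between 2.94% and 7.27% in each further 10% of its length but the first, which had 1.301%. Summits of other windows were spread too, with between 1.78% and 7.36%, and 0.867% in the first. Summits in no annotated gene were also more frequent, at 26.5% of shared peaks in gene-poor and 15.3% in other windows. This share is tied to the choice of windows, which was made by their low number of annotated entries.

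The gap was not even over gene lengths. Peaks were grouped into 4 equal parts by the length of the gene that held them. In genes of up to 4023 bp the share at the 3′ end was 72.6% in gene-poor and 76.9% in other windows. In genes of 4024 to 6465 bp it was 87.3% in gene-poor and 88.1% in other windows, and in genes of 6466 to 13115 bp it was 75% and 74.9%. In genes of 13119 bp or more it was 29.0% in gene-poor and 41.7% in other windows. This longest class held 42.9% of the gene-poor peaks and 21.8% of the others. With 1 peak counted per gene, the one with the highest fold, the shares came to 79.8% in gene-poor windows (1320 genes) and 83.4% in other windows (9402 genes), a difference of -3.53 percentage points, where it was -14.6 points with each peak counted.

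**Figure D4:**
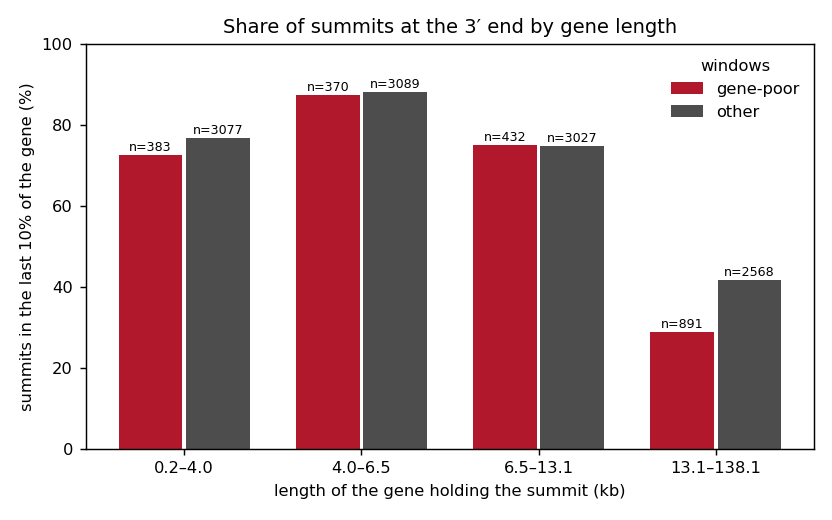
Share of shared m6A peaks with the summit in the last 10% of the gene (%), by the length class of the gene (kb), in gene-poor windows (red bars) and other windows (grey bars), with the number of peaks above each bar. The bars are nearly level in genes of 4.0 to 13.1 kb and differ most in the longest class, at 29.0% against 41.7%.

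Among the genes with a 3′ end peak, 188 of 1135 (16.6%) had at least 1 further peak upstream in gene-poor windows and 847 of 8144 (10.4%) in other windows. In genes of 9015 bp or more, the longest of 4 equal length classes, the shares were 38.6% (152 of 394) and 29.1% (560 of 1926). Length was not fully matched within this class, with medians of 14586.5 bp in gene-poor and 13272.5 bp in other windows. In these genes the 3′ end peak was compared with the further peak of highest fold. The 3′ end peak was the more enriched in 107 of the 188 gene-poor genes (56.9%) and in 542 of the 847 others (64.0%). Further peaks numbered 639 in the 188 gene-poor genes and 1822 in the 847 others, which is more per gene in gene-poor windows. A larger number of further peaks lowers this share by itself. The shares therefore cannot show whether 3′ end peaks were relatively weaker in gene-poor windows. A second 3′ end peak in the same gene was about as rare in both, in 3.88% of gene-poor and 3.28% of other genes.

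The abundance of the mRNAs with a 3′ end peak was alike. Median mRNA levels were 5.42 and 5.67 FPKM in the 2 replicates in gene-poor windows, and 5.40 and 5.52 FPKM in other windows. On the log2 scale the medians of the replicate mean differed by 0.02, and the gene-poor median was the higher one on 5 of 10 chromosomes. In expressed genes without a 3′ end peak the median was 4.36 FPKM in gene-poor and 4.95 FPKM in other windows. Median polysome levels of genes with a 3′ end peak were 4.24 and 4.92 FPKM in gene-poor and 4.24 and 4.94 FPKM in other windows.

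Translational efficiency was taken as the ratio of polysome to mRNA FPKM, over the 1056 gene-poor and 7552 other genes with at least 1 FPKM of mRNA. Its median was 0.787 in gene-poor and 0.807 in other windows in replicate 1, and 0.928 and 0.921 in replicate 2. The 2 replicates thus put the groups in opposite order, and each gap was smaller than that between the replicates of the same genes. The median ratio of mean polysome to mean mRNA FPKM was 0.849 in gene-poor and 0.857 in other windows, and the gene-poor median was the lower one on 8 of 10 chromosomes, with chromosomes 4 (1.06 against 0.829) and 5 (0.863 against 0.860) the exceptions. Expressed genes without a 3′ end peak were further apart, with median ratios of 0.761 and 0.793 in the 2 replicates in gene-poor windows, and 0.866 and 0.902 in other windows.

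The near equality held while the lengths differed, and the ratio moved with length. Its Spearman correlation with gene length, across genes of the same libraries, was -0.31 in gene-poor and -0.41 in other windows. Genes were again put into 4 equal parts by length. In the shortest class, up to 3822 bp, the median ratio was lower in gene-poor windows, at 1.27 and 1.39 in the replicates against 1.37 and 1.54. In the longest class it was higher, at 0.664 and 0.734 against 0.559 and 0.623. The class below the longest had the same direction, with 0.766 and 0.857 in gene-poor and 0.704 and 0.803 in other windows. In the class of 3823 to 5493 bp it was lower in gene-poor windows, at 0.765 and 0.909 against 0.805 and 0.946. The ratio therefore declined less steeply with length in gene-poor windows, in both replicates. Median mRNA levels of these genes differed too. They were 6.92 FPKM in gene-poor and 8.14 FPKM in other windows in the shortest class, and 4.79 and 4.25 FPKM in the longest. Whether this bears on the ratio was not tested.

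**Figure D5:**
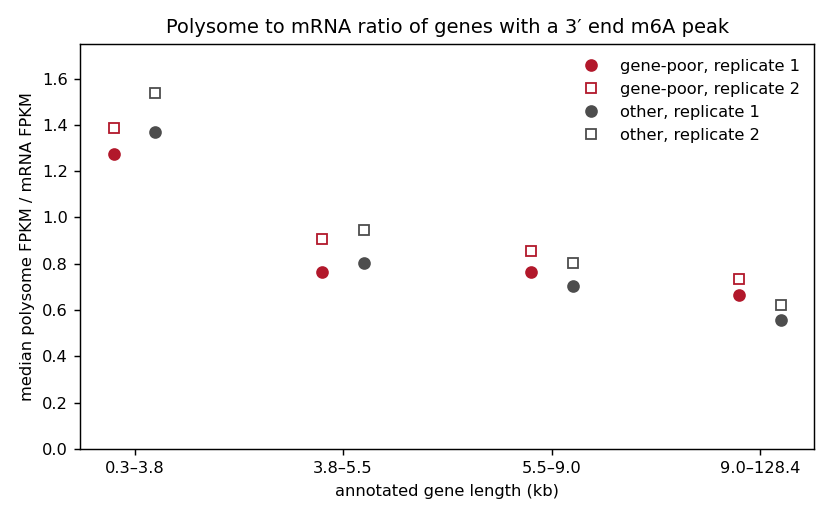
Median ratio of polysome to mRNA FPKM in genes with a 3′ end m6A peak, by class of annotated gene length (kb, 4 equal classes). Red symbols are gene-poor and grey symbols other windows, filled circles are replicate 1 and open squares replicate 2; gene-poor medians lie lower in the shortest class (1.27 and 1.39 against 1.37 and 1.54) and higher in the longest (0.664 and 0.734 against 0.559 and 0.623).

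Polysome RNA was then tested against mRNA gene by gene with limma on log2(FPKM + 0.1), over the 19518 entries with a mean of at least 1 FPKM across the 4 libraries. A gene was called at an adjusted p under 0.01 (Benjamini-Hochberg) and a fold change of at least 1.5. The p-values set each difference against the spread between these libraries, which limma estimates for each gene with the help of all entries tested. Of the 1135 genes, 1046 could be tested. Polysome RNA was higher in 215 (20.6%), against a background of 21.1% of all entries tested, and lower in 239 (22.8%), against a background of 22.2%. Both shares were near the background, and the median log2 difference was -0.20 in the gene-poor group, -0.18 in genes with a 3′ end peak in other windows and -0.14 over all entries tested. The number of lower calls changed with the libraries, and there were 98 without mRNA replicate 1 (9.43%, background 12.0%), without mRNA replicate 2 (9.48%, background 10.6%) and without polysome replicate 1 (9.31%, background 12.2%). The split depended on the scaling of the libraries, for all entries as for this group. After centring of the libraries on their medians, the counts were 279 higher (26.7%, background 26.8%) and 182 lower (17.4%, background 17.2%). With the non-coding entries named ENSRNA left out, which took 58.9% to 59.6% of the FPKM in mRNA and 24.6% to 25.9% in polysome RNA, and with equal sums, they were 93 higher (8.82%, background 9.33%) and 494 lower (46.9%, background 45.1%).

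Calls in the gene-poor group also went with length. In its shortest length class 37.8% of tested genes were higher and 9.46% lower on polysomes, and in its longest class 11.4% were higher and 31.9% lower. In the other windows the same classes had 41.6% higher and 8.60% lower, and 8.70% higher and 35.9% lower. The median of the polysome libraries minus that of the mRNA libraries was -0.23 on the log2 scale as deposited and -0.85 with ENSRNA entries left out, and directions are given on the deposited scale. No called gene named here changed direction under either other scaling.

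The 3 largest increases among genes averaging at least 5 FPKM over the 4 libraries were all over 5-fold. Zm00001d030786 (chromosome 1, 159716363–159727649, plus strand) had 358 and 338 FPKM in polysome RNA, against 62.4 and 52.5 FPKM in mRNA. Its 3′ end peak had a fold of 4.84 and 3.36. Zm00001d053175 (chromosome 4, 218265429–218267915, minus strand) had 10.1 and 10.1 FPKM in polysome RNA, against 1.74 and 1.77 FPKM in mRNA, with a peak of fold 10.03 and 14.3. Zm00001d015460 (chromosome 5, 91587913–91590987, plus strand) had 64.7 and 61.7 FPKM in polysome RNA, against 12.8 and 10.5 FPKM in mRNA, with a peak of fold 3.19 and 4.06. In each of them the polysome libraries lay far above the mRNA libraries, with log2 differences of 2.60 ± 0.13, 2.46 ± 0.16 and 2.44 ± 0.15 (SE, limma adjusted p of 0.000115, 0.000161 and 0.000144).

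The 3 largest decreases were in genes longer than those. Zm00001d009243 (chromosome 8, 46518330–46532634, minus strand, 14305 bp) had 2.40 and 2.497 FPKM in polysome RNA, against 19.0 and 21.2 FPKM in mRNA, with a peak of fold 4.79 and 6.08. Zm00001d004139 (chromosome 2, 85783948–85803502, minus strand, 19555 bp) had 1.60 and 1.94 FPKM in polysome RNA, against 10.6 and 11.4 FPKM in mRNA, with a peak of fold 5.74 and 5.10. Zm00001d023792 (chromosome 10, 20844614–20890419, plus strand, 45806 bp) had 3.34 and 2.49 FPKM in polysome RNA, against 20.3 and 24.6 FPKM in mRNA, with a peak of fold 5.69 and 3.76 among 11 replicated peaks. Polysome RNA was below mRNA in both replicates of each gene, with log2 differences of -2.99 ± 0.15 for Zm00001d009243, -2.57 ± 0.18 for Zm00001d004139 and -2.91 ± 0.20 for Zm00001d023792 (SE, limma adjusted p of 0.00012, 0.00018 and 0.000179). Zm00001d023792 overlaps the next annotated entry, so reads of the 2 entries may be shared between them.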

How the data were processed

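Data came from 6 processed files of B73×Mo17 hybrid seedlings, with 2 replicates each of m6A-IP, input mRNA and polysome RNA, which the study describes as biological replicates. Per the study's methods and processing notes, the authors used Trimmomatic 0.35 for trimming and HISAT2 2.1.0 for mapping to B73 AGPv4, called peaks per replicate with MACS2 at q < 0.01 against input, and estimated FPKM with StringTie. The deposited FPKM are per gene and library. For each peak the authors deposited the MACS2 fold enrichment (a ratio), −log10 p and −log10 q values, and a score, which is 10 times the −log10 q without its decimals. Depth is unknown, and no counts were used.

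The summit is the peak start plus its deposited offset, peaks were shared at an overlap of 1 bp, and coordinates are printed 1-based. With the summit taken 1 bp further, 1184 peaks would be members. Windows were compared by medians, per replicate and per chromosome, without a test. Polysome FPKM were tested against mRNA FPKM by limma 3.58.1 (R 4.3.3, trend) on log2(FPKM + 0.1), a scale that understates the change of low genes, with the steps tested on simulated data; other steps used Python 3.11.15. Named genes were taken by rule: the 3 highest and 3 lowest mean folds at 10 FPKM of mRNA or more, the 3 longest at 1 FPKM or more, the 3 highest in mRNA, the 3 largest called polysome increases and decreases averaging 5 FPKM or more, and the highest fold in the sparsest window. Members and lists were chosen with earlier results of these data known. Alternatives varied the windows, the peak overlap, q, the 3′ end rule, the pseudocount, the filter, the scaling and the libraries. No genome sequence of this build and no gene symbols were used here.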

Additional observations from a re-analysis of the deposited data

How the results depend on the processing

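Limits come first from the 2 replicates per kind of library and the unknown depth. Differences between gene-poor and other windows are given as the gene-poor median minus the other on the log2 scale, as a ratio for gene length, and in percentage points for the share of summits at the 3′ end. With the windows and peaks as described they were 0.06 for mean log2 fold, 1.15 for length, 0.02 for mRNA FPKM, -0.01 for the polysome to mRNA ratio and -14.6 points for the share. The medians of fold and length kept their direction under each alternative run, though the fold difference came down to 0.027, and the share stayed lower. The signs of the mRNA and ratio differences did not hold, and the cause was not tested.

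With under 50 entries as the limit there were 371 peaks, and the differences were 0.15 for fold, 1.496 for length, -0.34 for mRNA, -0.13 for the ratio and -24.2 for the share, with 53 polysome calls higher (16.3% of 325 tested, background 21.1%) and 83 lower (25.5%, background 22.2%). With under 100 entries there were 2554 peaks, a fold difference of 0.027, a length ratio of 1.11, a share difference of -8.80, and 473 calls higher (21.1% of 2246 tested) and 502 lower (22.4%), on the same backgrounds. Windows shifted by 2.5 Mb gave 1.13 for length, -0.0063 for mRNA and -13.6 for the share. Windows of 2 Mb with under 30 entries gave 1.18 for length, -0.013 for mRNA, -0.062 for the ratio and -12.6 for the share. Leaving ENSRNA entries out of the window count gave 1.12 for length, 0.049 for mRNA and -13.5 for the share. Peaks that overlapped over 50% or more of each gave 1.16 and -10.2, and a q of at most 1e-05 in both replicates gave -11.8 for the share. Summits within 500 bp of the 3′ end gave 1.11 for length, 0.0069 for the ratio and -15.9 for the share. Without replicate 1 or replicate 2 in turn, the fold difference was 0.041 and 0.090, the length ratio 1.12 and 1.15, the mRNA difference 0.038 and 0.0059, the ratio difference 0.010 and -0.037 and the share difference -16.0 and -14.7. Within 4 bins of mRNA FPKM the fold difference was 0.11 and the length ratio 1.14. Within 4 bins of gene length the fold difference was 0.035, the mRNA difference 0.045, the ratio difference 0.056 and the share difference -4.41, so the ratio was then the higher one in gene-poor windows. All alternatives for the share were chosen after seeing the data, 1 peak a gene among them, which gave -3.53. So were bins of length by FPKM, with a ratio difference of 0.070, and the last window of each chromosome left out, with a length ratio of 1.14.

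The 215 higher and 239 lower calls became 93 and 494 with ENSRNA entries left out and equal sums (backgrounds 9.33% and 45.1%). The lower calls became 112 at a mean FPKM of at least 5 (19.3%, background 21.7%). With no filter beyond a value above 0 in 1 library there were 166 higher (14.7%, background 10.1%) and 140 lower (12.4%, background 9.44%). Leaving out 1 library at a time gave 145 to 171 higher calls (backgrounds 14.6% to 16.4%) and 98 to 165 lower calls (backgrounds 10.6% to 16.4%), with 98 lower calls without mRNA replicate 1, mRNA replicate 2 or polysome replicate 1, where the lone library is assumed to vary like the other kind. The mRNA and polysome libraries share replicate numbers, but the labels do not say whether same-numbered libraries came from the same plants. Their deviations correlated at 0.016 across 19518 entries, which cannot settle this, since noise of the libraries can hide a shared origin. The main fit did not pair them. With the replicate block the counts were 199 higher (19.0%, background 19.9%) and 222 lower (21.2%, background 20.5%). Among the named genes, Zm00001d015890 and Zm00001d040864 also lost their calls with no low filter, and Zm00001d046221 was called lower with ENSRNA entries left out (log2 -1.45).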
